A study of Rattus norvegicus with 8 samples.

Results

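The genes described here build the apical surface and the keratin skeleton of colonocytes, the columnar cells that line the colon. They were listed by name: Vil1, Ezr and Myo1a of the microvillus, the cadherin family members Cdh17, Cdhr2 and Cdhr5, and the simple epithelial keratins Krt8, Krt18, Krt19 and Krt20. Of these 10 genes, 9 had a probe set that carries only their symbol in the platform annotation, with 1 probe set each, so no second probe set of a gene can be set beside the first. Myo1a, an unconventional myosin that ties the actin core to the microvillus membrane, had no such probe set and was not analysed here. Over the whole series 14217 genes had a probe set of their own symbol and 10266 of them, all 9 genes here included, passed the filter on dim signals. The list names genes by function and applies no threshold on the measured values, but it was drawn up with earlier results of these data known.

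The samples were total RNA from scrapings of the distal colon mucosa of rats. Control rats (4 arrays) ate a standard breeder chow, RM3, for 11 weeks, and quercetin rats (4 arrays) had quercetin, a plant flavonol, at 10 g per kg of diet over the same 11 weeks. The labels used here name no strain, sex or age and do not say that each array stands for its own rat, so the tests reflect sample-to-sample spread, which may in part be technical. A scraping holds epithelium with the tissue beneath it, and in such bulk RNA fewer cells of a type cannot be told apart from less RNA per cell.

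Microvilli are finger-like projections, each held up by a bundle of actin filaments, that enlarge the absorptive surface of the gut. Villin bundles the filaments, ezrin links them to the plasma membrane, and protocadherins at the microvillus tips hold neighbouring microvilli together in an even array. Below this brush border, a web of keratin filaments gives the cell its mechanical strength. Keratin filaments are obligate pairs of a type I and a type II protein: Krt8 is the main type II partner in the colon, and Krt18, Krt19 and Krt20 are type I. Krt20, villin and the protocadherins become more abundant as cells leave the crypt and mature toward the surface.

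The start regions of 8 of the 10 genes were found in the RefSeq promoter table (build GRCr8). Cdh17 and Krt19 had no entry. The 250 bases before each start were searched on both strands for 3 motifs. The TATA box, where the general transcription machinery can bind, was spelled out as TATAAA. A GC box of the kind bound by SP factors was searched as CCCGCCC, and the core letters of sites for the intestinal CDX factors as TTTATG. Of 33360 such windows in the table, 12.9% held the TATA box, 21.0% the GC box and 11.4% the CDX letters. These stretches are shown because they hold the matches in the 5 genes printed, and no link between the motifs and the array values was tested. Capitals mark the matched motif, and each line reads 5′ to 3′ on the gene's own strand.
Krt20, chr10:84890315-84890374, minus strand: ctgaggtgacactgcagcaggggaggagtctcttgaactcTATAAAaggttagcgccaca
Krt8, chr7:135010424-135010483, minus strand: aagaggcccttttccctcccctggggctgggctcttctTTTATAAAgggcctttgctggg
Krt18, chr7:135036044-135036104, plus strand: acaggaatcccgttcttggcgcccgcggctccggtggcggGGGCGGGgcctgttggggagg
Ezr, chr1:49416627-49416687, minus strand: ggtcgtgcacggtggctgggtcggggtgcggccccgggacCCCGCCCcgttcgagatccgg
Cdhr5, chr1:205811164-205811223, minus strand: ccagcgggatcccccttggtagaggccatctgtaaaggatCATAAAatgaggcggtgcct
The match in Krt20 began 49 bases before the annotated start and that in Krt8 104 bases before it, where it overlaps a second match on the other strand. Krt18 had its GC box on the other strand, 84 bases before the start, and Ezr had one 74 bases before. Cdhr5 had the CDX letters on the other strand, 91 bases before its start. Cdhr2 held a GC box 114 bases before its start, and Vil1 and Myo1a held none of these motifs in the window. Krt8 and Krt18, whose proteins pair, are neighbours on chromosome 7, pointing away from each other, with no protein-coding gene listed between them. A match describes letters only and is no evidence that a factor binds there.

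The labelled tissue was checked against marker genes. All 11 absorptive colonocyte markers with a probe set passed the filter, with a summed signal of 62484 to 77377 on control arrays and 70626 to 80304 on quercetin arrays, led by the carbonic anhydrase Car1 and the lectin Lgals4. General epithelial markers, led by Epcam and Tspan8, summed to 57115 to 66534 in control and 57626 to 63414 in quercetin. Goblet cell markers, led by Muc2 and Agr2, summed to 72871 to 79498 and to 69858 to 81426. Levels of different probe sets cannot be set against each other, so each list is given by how many of its genes passed the filter and by its range in each diet. Of 11 smooth muscle markers 6 passed. The 9 fibroblast genes summed to 259 to 432 in control and 295 to 408 in quercetin, with 6 of them too dim to test and Vim and Col1a1 among the 3 tested. Of 6 markers of stratified squamous epithelium with a probe set, which would mark tissue from near the anus and include Krt5, Krt14, Krt13 and Krt4, none passed the filter. Of 5 endothelial markers 2 passed, Pecam1 and Tek, and of 4 mesothelial markers 1 passed, Lrrn4; mesothelium also makes Krt8, Krt18 and Krt19.

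None of the 9 genes differed between the diets by the test used. All 18625 probe sets were fitted with limma on log2(signal + 16) and p-values were adjusted by the Benjamini-Hochberg method; 0 of 9 genes had an adjusted p under 0.05, against 0.0107% of all probe sets tested. At an unadjusted p under 0.05 there were also 0 of 9, against 10.8% of all probe sets, and the diets did not overlap in 0 of 9, against 6.39%. The log2 differences, quercetin minus control, were above 0 for 4 genes and below 0 for 5, with a median of -0.02 beside 0.009 over all probe sets. Adjusted p-values ran from 0.652 to 0.993. The median standard error of the 9 genes was 0.147, against 0.222 over all probe sets, dim ones included, and 0.197 over all genes. Beside bright probe sets these genes were not uniformly precise. Of the brightest 10% of probe sets, 1.34% had a lower residual SD than Krt19 and 93.8% a lower one than Krt20, with the other genes between. Of the 95% intervals the bound farthest from 0 was -0.62, for Ezr.

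**Figure D1:**
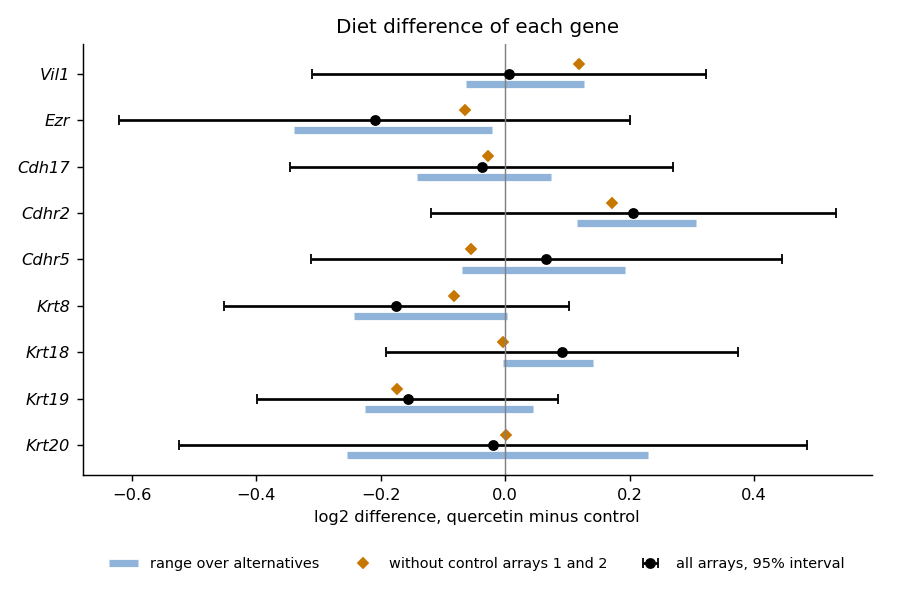
Log2 difference between diets (x axis, quercetin minus control) for the 9 measured genes (y axis). Black points and bars are the limma estimate from all arrays with its 95% interval, orange diamonds the estimate without control arrays 1 and 2, and blue bars the range over all alternative settings; every black interval crosses 0, and the Ezr interval reaches from -0.62 to 0.20.

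Control array 1 was the highest of the 8 arrays for 5 of 9 genes, and control array 2 was the lowest for 4 of 9. In Krt20 and Cdh17 alone did they hold both the highest and the lowest signal. The difference without both arrays is given for each gene whose value moved by over 1.5 times when they were left out. Control array 2 had the highest 3' to 5' signal ratio of GAPDH, 3.79 against 1.58 to 2.36 elsewhere, and of beta-actin, 21.4 against 6.79 to 12.4; high ratios of this kind are a sign of broken RNA or of cDNA synthesis that stopped short. Control array 1 had the lowest GAPDH ratio, 1.58, with a beta-actin ratio of 8.65. The hexokinase ratio did not single out control array 2. It was 2.76 there, within the 1.62 to 6.05 of the other arrays, and highest on quercetin array 4.

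Vil1 encodes villin, which bundles the actin filaments of the microvillus core. Its signal on control arrays 1 to 4 was 6217, 4397, 4740.4 and 4213, and on quercetin arrays 1 to 4 it was 4357, 5379, 4409.6 and 5366. Control array 1 was the highest of the 8 and control array 4 the lowest, so the quercetin values all fell inside the control range. The group means were 4892 ± 910.3 (SD, n = 4) in control and 4878 ± 571 (SD, n = 4) in quercetin, a log2 difference of 0.006 (SE 0.147, adjusted p = 0.993). The 95% interval, in fold, was 0.806 to 1.25. Without control arrays 1 and 2 the difference was 0.12 (adjusted p = 0.89), and its sign turned when control array 2, 3 or 4 or quercetin array 2 or 4 was left out, down to -0.06.

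Ezr encodes ezrin, which is switched on by phosphorylation at the apical membrane and anchors actin to transporters and scaffold proteins there. Signals of Ezr were 6105, 3417, 3149 and 4412 on control arrays 1 to 4. On quercetin arrays 1 to 4 they were 3675, 3053, 3473 and 4146. Every quercetin array lay below the control mean, but control arrays 2 and 3 lay among them. From 4271 ± 1338 (SD, n = 4) to 3587 ± 454 (SD, n = 4), the log2 difference was -0.21 (SE 0.19, adjusted p = 0.739), or 0.864 times control with a 95% interval of 0.65 to 1.15. Without control array 1 the value was -0.022 (adjusted p = 0.97), without control array 3 it was -0.34, without quercetin array 2 it was -0.136, and without control arrays 1 and 2 it was -0.064.

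Cdh17 encodes LI-cadherin, an adhesion protein of the lateral membrane of intestinal cells. Control arrays 1 to 4 read 11062, 7065, 8239.7 and 9223 for Cdh17. The 4 quercetin arrays read 7869.6, 8609, 8871 and 8908. They were close together, inside the control range, with control array 1 the highest and control array 2 the lowest of all 8. Means were 8897 ± 1691 (SD, n = 4) and 8564 ± 482 (SD, n = 4), and the log2 difference was -0.037 (SE 0.142, adjusted p = 0.955), with an interval of 0.787 to 1.21 in fold. Its sign turned without control array 1 (0.074) and without quercetin array 1 (0.003), while it was -0.142 without control array 2 and -0.027 without control arrays 1 and 2.

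Cdhr2 and Cdhr5 encode the protocadherins that bind each other between the tips of adjacent microvilli. For Cdhr2 the control signals were 3363, 2409, 2672 and 3322, and the quercetin signals 2714, 3787, 3473 and 3569.9. Quercetin arrays 2, 3 and 4 lay above all controls, while quercetin array 1 fell between control arrays 3 and 4. This was the largest value on the higher side among the 9 genes, a log2 difference of 0.21 (SE 0.151, adjusted p = 0.666), from 2942 ± 476 (SD, n = 4) to 3386 ± 467 (SD, n = 4), or 1.15 times control with an interval of 0.92 to 1.44. Leaving out quercetin array 1 gave 0.31 and leaving out control array 2 gave 0.115, and the sign held in all 21 alternative settings.

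Its partner Cdhr5 had signals of 4942, 3331, 4374 and 5277 in control and 3546, 5332, 4406 and 5483 in quercetin. Control array 2 was the lowest of the 8 arrays and quercetin array 1 the lowest of its diet, as they were for Cdhr2. Quercetin arrays 2 and 4 lay above all controls, and quercetin arrays 1 and 3 lay within the control range. The Cdhr5 means were 4481 ± 853 (SD, n = 4) and 4692 ± 900.2 (SD, n = 4), a log2 difference of 0.066 (SE 0.175, adjusted p = 0.929; interval 0.806 to 1.36 in fold). That sign turned without control array 2 (-0.069), without quercetin array 2 (-0.002), without quercetin array 4 (-0.016) and without control arrays 1 and 2 together (-0.055).

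**Figure D2:**
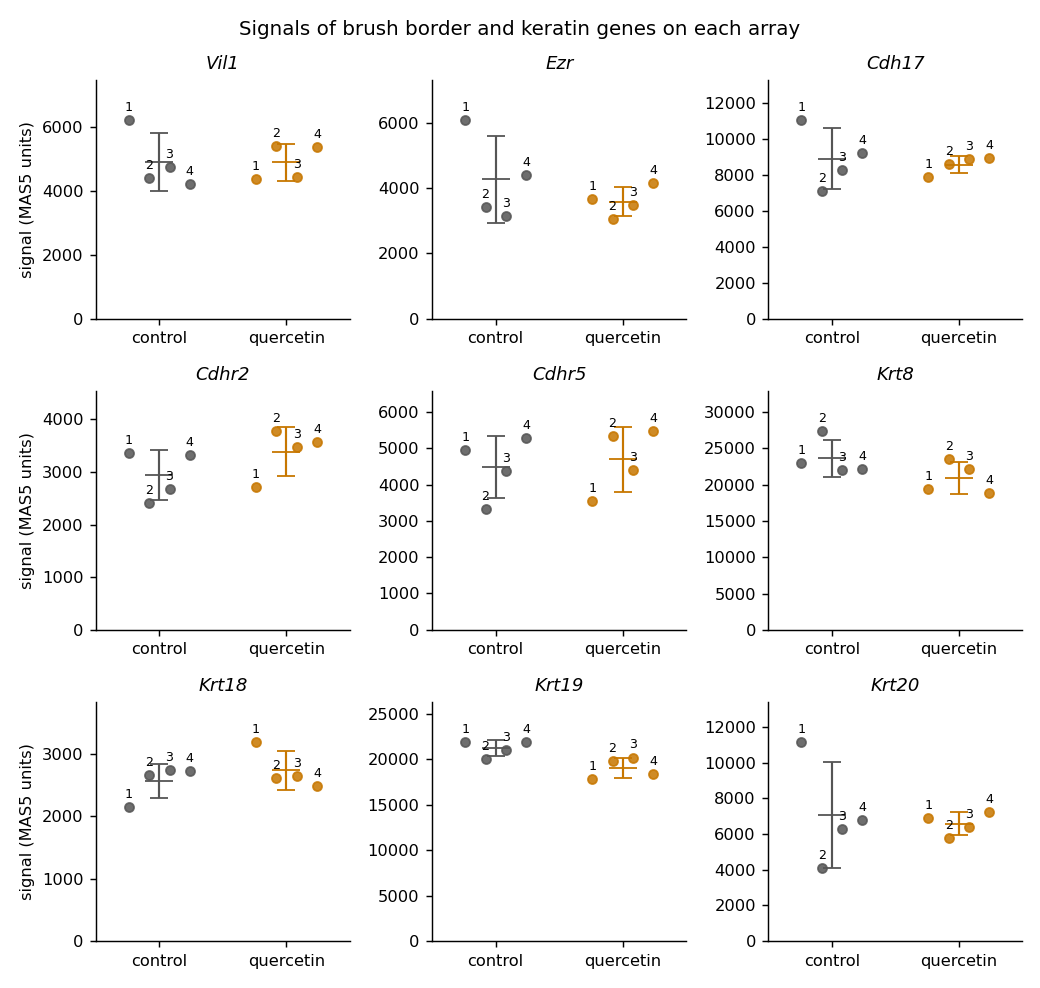
Signal of each gene (y axis, MAS5 units on a linear scale from 0) on each array, with the array's number beside its point, for control (grey) and quercetin (orange); horizontal marks are group means and bars 1 SD over 4 arrays. In Krt20 control array 1 reads 11182 and control array 2 reads 4067, with all quercetin arrays between them; in every gene the groups overlap.

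Krt8 supplies the type II partner in colonocyte keratin filaments. Control arrays gave 22990.5, 27443, 22083 and 22133, and quercetin arrays gave 19361, 23473, 22137 and 18887. Quercetin arrays 1 and 4 lay below all controls and the other 2 lay within the control range. The Krt8 means were 23662 ± 2554 (SD, n = 4) and 20964 ± 2202 (SD, n = 4), a log2 difference of -0.17 (SE 0.129, adjusted p = 0.667), or 0.886 times control with an interval of 0.731 to 1.07. It was -0.101 without control array 2 and -0.082 without control arrays 1 and 2. Unlike Vil1, Ezr, Cdh17, Krt19 and Krt20, which were highest on control array 1, Krt8 was highest on control array 2.

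Krt18, the classical type I partner of Krt8, read 2156, 2664, 2739 and 2727 on the control arrays and 3199.6, 2612, 2651 and 2495 on the quercetin arrays. Control array 1 was the lowest and quercetin array 1 the highest of the 8. From 2572 ± 279 (SD, n = 4) to 2739.5 ± 314 (SD, n = 4), the log2 difference was 0.09 (SE 0.131, adjusted p = 0.847; interval 0.875 to 1.3 in fold). Without control array 1 it was 0.009, without quercetin array 1 it was 0.014, and without control arrays 1 and 2 it was -0.003.

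Krt19 is the type I keratin that lacks most of the tail domain. Its signals were the least scattered of the 9 genes: 21933, 20039.5, 21062 and 21867 in control, and 17838, 19766, 20204 and 18365.5 in quercetin. Only quercetin array 3 lay above the lowest control, array 2. Group means of 21225 ± 884 (SD, n = 4) and 19043 ± 1123 (SD, n = 4) gave a log2 difference of -0.16 (SE 0.112, adjusted p = 0.652), or 0.897 times control with an interval of 0.758 to 1.06. Its residual SD of 0.074 was lower than that of all but 1.34% of the brightest 10% of probe sets tested, and limma drew that SD up toward the spread of other bright probe sets. For both bright keratins the sign turned with quantile normalisation, to 0.003 for Krt8 and 0.045 for Krt19. With median centring the 2 genes kept their sign, at -0.125 and -0.107, as they did when scaled to epithelial markers, at -0.243 and -0.226.

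Krt20 is a type I keratin found mainly in mature cells near the surface of the colon. Its control signals were 11182, 4067, 6286 and 6815, a ratio of highest to lowest of 2.75, while its quercetin signals were 6909, 5761, 6406 and 7241, a ratio of 1.26. Control arrays 1 and 2 were the highest and the lowest of the 8, and all quercetin arrays lay between them. The means were 7088 ± 2978 (SD, n = 4) and 6579 ± 645 (SD, n = 4), and the log2 difference was -0.02 (SE 0.234, adjusted p = 0.987), with an interval of 0.695 to 1.4 in fold. It was 0.23 without control array 1, -0.26 without control array 2, 0.002 without both of these and 0.042 without quercetin array 2. With the GAPDH 3' to 5' ratio as a covariate the difference was -0.13 (adjusted p = 0.655) and its SE fell by more than that of any other gene here, to 0.111.

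The arrays of the control group lay farther apart than those of the quercetin group for some of these genes, most of all for Krt20, Ezr and Cdh17. The SD of log2(signal + 16) was larger in control for 7 of 9 genes, the exceptions being Krt8 and Krt19. For Krt20 it was 0.597 in control and 0.144 in quercetin, for Ezr 0.428 and 0.183, and for Cdh17 0.272 and 0.083. Vil1 had 0.251 and 0.169. The values were close for Cdhr5 (0.292 and 0.29), Krt18 (0.165 and 0.157) and Cdhr2 (0.236 and 0.211), all counted among the 7. Without control arrays 1 and 2, the ratio of highest to lowest signal over the other 6 arrays was 1.26 for Krt20 and 1.17 for Cdh17. Over all 8 it was 2.75 and 1.57, but these arrays held the highest and lowest signals of both genes, so the ratio had to fall. Without and with them it was 1.277 and 1.476 for Vil1, 1.445 and 2.0 for Ezr, and 1.417 and 1.572 for Cdhr2. For Cdhr5 it was 1.546 and 1.646, for Krt8 1.243 and 1.453, for Krt18 1.282 and 1.484, and for Krt19 1.226 and 1.23. Whether the spread differs between the diets was not tested, and the same count was not made over all genes, so 7 of 9 may not be particular to these genes.

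**Figure D3:**
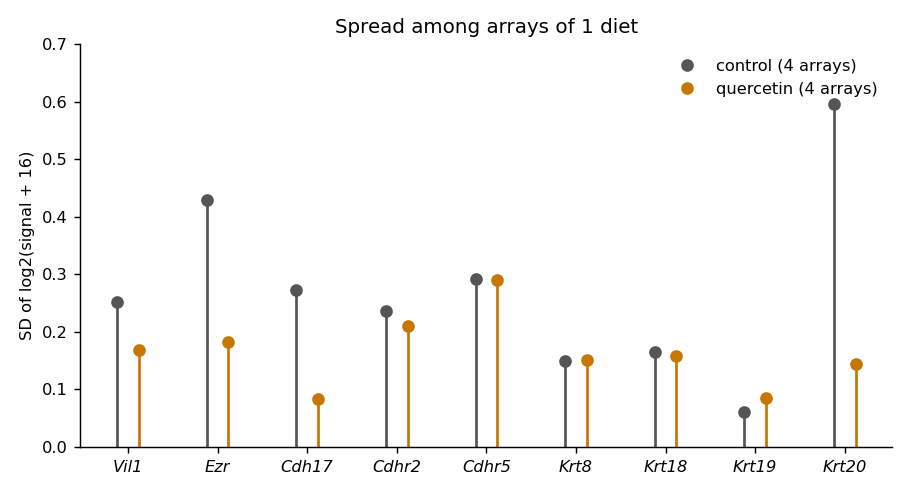
Standard deviation of log2(signal + 16) (y axis) over the 4 control arrays (grey) and the 4 quercetin arrays (orange) for each gene (x axis). The control value is 0.597 for Krt20 and 0.428 for Ezr, while the quercetin value of every gene is at most 0.29.

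The microvillus and cadherin genes often lay on the same side of their mean on an array, while the keratins were divided. After each gene was centred on its mean over the 8 arrays, control array 1 was above the mean for 5 of 5 microvillus and cadherin genes (average 0.32 on the log2 scale) and quercetin array 4 likewise for 5 of 5 (0.15). Control array 2 (-0.28), quercetin array 1 (-0.18) and control array 3 (-0.13) were above it for 0 of 5. The rest were split: 4 of 5 on control array 4, 3 of 5 on quercetin array 2 and 2 of 5 on quercetin array 3. Of the 4 keratins, 3 were above their mean on control arrays 1 and 4, 1 on quercetin arrays 2 and 4, and 2 on each remaining array. On control array 1, Krt20 stood at 0.76 and Krt18 at -0.29, and on control array 2, Krt20 stood at -0.70 and Krt8 at 0.31.

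The extremes of these genes went with other measures of the same arrays. On control array 1 the 9 proliferating crypt markers, among them Pcna and Mki67, averaged -1.19 relative to the 8-array mean, against -0.32 to 0.625 on the others, and their summed signal ran from 2042 to 5221 in control and from 4500 to 7215 in quercetin. All 9 had log2 differences above 0, with a median of 0.67 beside 0.036 over all genes, 3 at an unadjusted p under 0.05, against 9.39% of all genes, and 0 past the adjusted threshold. Control array 1 enters these differences. Control arrays 2 to 4 averaged 0.077, 0.231 and -0.316 over this list, and quercetin arrays 1 to 4 averaged 0.625, 0.435, 0.039 and 0.102, so these arrays overlapped. The median without control array 1 was not computed. Of the 11 absorptive colonocyte markers, 9 had differences above 0, with a median of 0.185, 2 of 11 at an unadjusted p under 0.05, beside the same 9.39%, and 0 past the adjusted threshold. General epithelial markers were highest on control array 1 (0.14) and lowest on control array 2 (-0.23), the same 2 arrays as for Krt20. The absorptive colonocyte markers were likewise highest on control array 1 (0.204) and lowest on control array 2 (-0.38). Smooth muscle markers, led by Tpm1 and Mylk, were also highest on control array 1 (0.34), with sums of 3647 to 5629.9 in control and 3077 to 3559 in quercetin, and Actg2, Cnn1, Tagln, Myl9 and Lmod1 too dim to test. Of the 6 tested, 4 had differences below 0, with a median of -0.22, while Acta2 (0.106) and Des (0.113) were above 0. At an unadjusted p under 0.05 there was 1, Tpm1 (-0.325), beside the same 9.39%. Other probe sets of Tpm1 had 0.35, -0.09, -0.66 and -1.41. Leukocyte markers, led by Cd3g and Lcp1, were below their mean on all 4 control arrays and above it on all 4 quercetin arrays, with sums of 450.1 to 868 and 605 to 1130.0, 6 of 10 with a probe set being bright enough to test. All 6 had differences above 0, with a median of 0.595. At an unadjusted p under 0.05 there were 2, beside the same 9.39%, and none passed the adjusted threshold. Of these 6, Csf1r read 1.7 on control array 2 and Coro1a 2.6 on control array 3. The filter takes the mean over all arrays, so a dim gene can pass through 1 diet. Markers too dim to test had control and quercetin means of 26.6 and 9.1 (Cd3e), 30.3 and 30.4 (Cd3d), 4.6 and 17.8 (Cd79b), and 31.6 and 21.3 (Cd68). Enteroendocrine markers, led by Chgb and Pyy, summed to 1412 to 2587.5 in control and 1729 to 3199.7 in quercetin. Of 6 tested, 5 had differences above 0, with a median of 0.2. At an unadjusted p under 0.05 there was 1, beside the same 9.39%. The part of these measures in the keratin and brush border values was not tested, save for the epithelial markers: with each array scaled to them, the differences were -0.28 for Ezr, -0.24 for Krt8, -0.23 for Krt19 and 0.14 for Cdhr2, and 0 of 9 genes passed (lowest adjusted p 0.646).

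**Figure D4:**
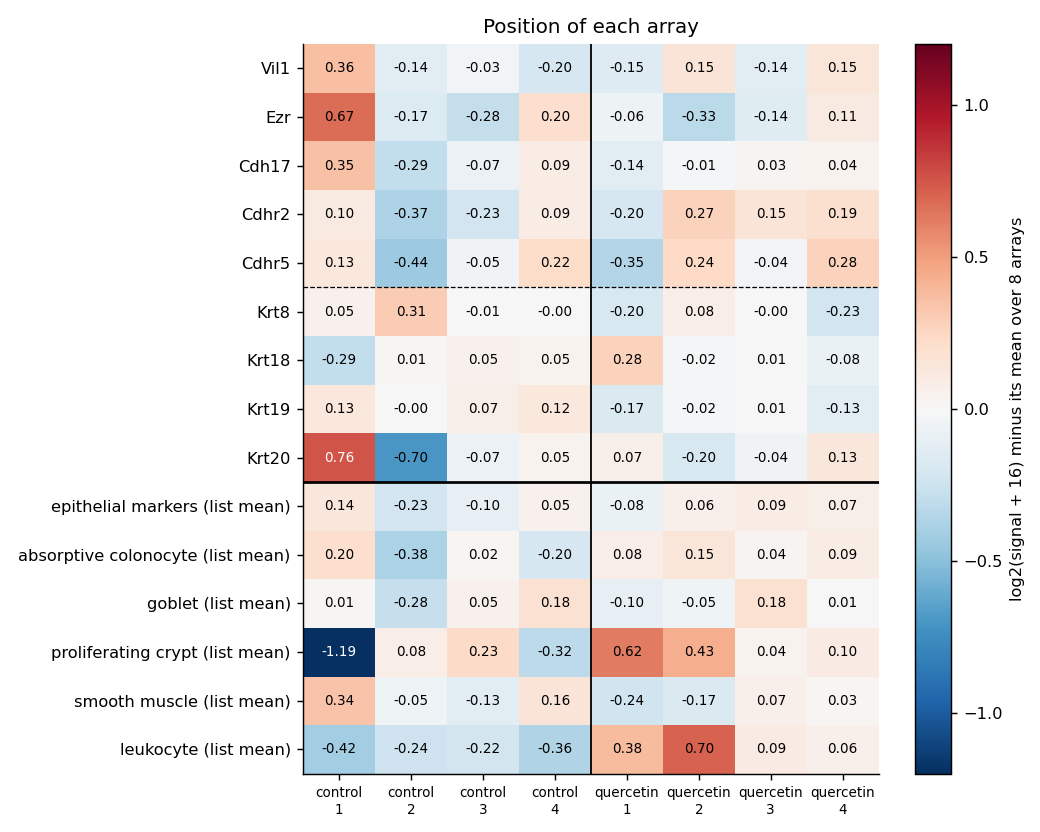
Each cell is the log2(signal + 16) of a gene (upper rows) or the average of a marker list (lower rows) minus its mean over 8 arrays, by array (columns). Krt20 reads 0.76 on control array 1 and -0.70 on control array 2; the proliferating crypt list reads -1.19 on control array 1.

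Other genes of the brush border were taken from a list. Of 19 tested genes for microvillus assembly, 11 had differences above 0 and 8 below, with a median of 0.036, the same as over all 10266 genes by their brightest probe sets (0.036). None passed the adjusted threshold, where 0.00974% of all genes did, and 2 had an unadjusted p under 0.05, against 9.39%. Those with the smallest p were Anks4b, an adaptor that joins the tip protocadherins to their myosin motor (-0.35, SE 0.126, adjusted p = 0.353, groups not overlapping, as in 5.84% of all genes), Eps8, an actin regulator at the microvillus tip (-0.35, SE 0.161, adjusted p = 0.459), and its relative Eps8l3 (-0.27, SE 0.134, adjusted p = 0.496). Other probe sets of Eps8 had 0.02 and -0.56. Without control array 1 Eps8 had -0.201 (unadjusted p = 0.152 by limma), so it then left the count of 2. The Anks4b signal averaged 2386 ± 269 (SD, n = 4) in control and 1866 ± 155 (SD, n = 4) in quercetin. Within that complex, Cdhr2 had 0.21, Cdhr5 0.066, the scaffold Ush1c 0.036, the motor Myo7b 0.14 and its light chain Calml4 -0.10; the last 3 were chosen after their values were seen.

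Brush border enzymes and membrane mucins had 5 tested genes above 0 and 6 below, with a median of -0.01, 0 of 11 past the adjusted threshold and 2 of 11 at an unadjusted p under 0.05, against 9.39% of all genes. Enpep, an aminopeptidase that cleaves angiotensin, had 0.79 (SE 0.279, adjusted p = 0.349) at a low signal of 61.3 ± 30.3 (SD, n = 4) in control and 109.6 ± 11.5 (SD, n = 4) in quercetin, without overlap, as in 5.84% of all genes. Muc13, a membrane mucin of the colon surface, had 0.39 (SE 0.18, adjusted p = 0.46), and Ggt1, which breaks down glutathione outside the cell, had 0.47 (SE 0.222, adjusted p = 0.477). Quercetin array 2 read 7001 for Muc13, where the rest of its diet ran from 3752 to 4990, and leaving it out gave 0.208 (unadjusted p = 0.183 by limma), so it then left the count of 2.

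Other keratins and the proteins that tie keratin to desmosomes had 8 tested genes above 0 and 6 below, with a median of 0.021. At either threshold there were 0 of 14, where 0.00974% (adjusted) and 9.39% (unadjusted) of all genes passed. Dsg2, the desmosomal cadherin of simple epithelia, had -0.20 (SE 0.12, adjusted p = 0.595), the linker Evpl had -0.31 (SE 0.199, adjusted p = 0.611) and Eppk1, a plakin that binds keratin, had -0.21 (SE 0.143, adjusted p = 0.644). Without control arrays 1 and 2 Dsg2 had -0.095 and Eppk1 -0.103, and without control array 1 Evpl had -0.182. Ezrin's relatives, partners and regulators also had 0 of 9 at either threshold, beside the same shares of all genes. Of them, 4 were above 0 and 5 below, with a median of -0.018. Among these, Rhoa, the small GTPase upstream of ezrin phosphorylation, had 0.37 (SE 0.222, adjusted p = 0.595), Cd44, a membrane partner, 0.51 (SE 0.399, adjusted p = 0.689) and the ezrin kinase Slk -0.20 (SE 0.195, adjusted p = 0.757). Each of these values was smaller when 1 control array was left out: Rhoa had 0.124 without control array 2, and without control array 1 Cd44 had 0.126 and Slk -0.019. A second probe set of Slk had the opposite sign (0.191), while those of Rhoa (0.283) and Cd44 (0.792) had the same sign. With all probe sets of Slk averaged, those below the filter included, its difference was -0.392 (unadjusted p = 0.0404 by limma, adjusted p = 0.435).

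The genes whose profile over the 8 arrays was most like the mean profile of the 9 genes were Dusp5, a phosphatase of nuclear ERK, Zfp598, a sensor of stalled ribosomes, Parm1, Hpcal1 and Tyw5. They were ranked by Pearson correlation among 10257 genes as a measure of likeness, which was 0.965 to 0.981 over 8 arrays and 0.817 to 0.94 over the 6 arrays other than control arrays 1 and 2. Dusp5 had signals of 439, 105, 127 and 257 on control arrays 1 to 4 and 147, 195.5, 182 and 241 on quercetin arrays 1 to 4, so it too was highest on control array 1 and lowest on control array 2. Its log2 difference between the diets was -0.074 (adjusted p = 0.962). The mean profile is weighted toward the genes that varied most, such as Krt20 and Ezr, and does not stand for each of the 9. On control array 1 Krt18 was at -0.291, and on control array 2 Krt8 was at 0.307, against the mean profile.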

How the data were processed

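Biotin-labelled total RNA of 8 samples was hybridised to Affymetrix rat expression arrays, per the labels. The deposited table holds a linear intensity for each probe set on each array, which per the submitters' processing notes the authors computed with MAS5. This algorithm merges the probes of a probe set and scales every array; the deposited intensity values have a mean of 200.1 on each array once 2% is trimmed at both ends. The sources used here name no other step. Intensities carry no read depth, and the number of arrays limits the precision.

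After 57 array controls had been removed from the 31099 probe sets, signals were taken to log2(signal + 16), which understates the change of dim probe sets. The upper 60% by mean over all arrays were tested, 18625 in all (mean log2 of at least 5.504, a signal of about 29.4). Diets were compared with limma (version 3.58.1, R 4.3.3; linear model with empirical Bayes moderation, trended variance, two-sided tests, Benjamini-Hochberg adjustment over all probe sets, threshold 0.05), after the steps had been tested on simulated data. A gene's brightest probe set stood for it.

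The 9 measured genes were all named, with the 3 genes of smallest p from each further pathway list, the 2 brightest of each cell type list, and the 5 genes most like the mean profile. Genes and lists were chosen with earlier results of these data known, and lists were described without set tests.

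Alternatives changed the pseudocount (1 or 64), the scaling (quantile or median), the filter (none, or the upper 40%), the variance model (array weights, no trend), the unit (probe sets of a gene averaged) and the design (replicate number as a block, or the GAPDH 3' to 5' ratio as a covariate), or left out each array, or control arrays 1 and 2 together. Scaling to 9 epithelial markers was added after the data were seen.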

Additional observations from a re-analysis of the deposited data

Results flagged for a closer look

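A single array was far from its group in 2 of 54 groups of 4 arrays (genes, marker and pathway lists, and array measures), and about 2.7 would come by chance. For Krt18 it was control array 1, with a signal of 2156 where the remaining controls had 2664 to 2739, a gap of 0.884 of the group's range. For the hexokinase 3' to 5' ratio it was quercetin array 4, whose ratio of 6.05 compares with 2.16 to 2.37 in the rest of its group, a gap of 0.946 of the range.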

How the results depend on the processing

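None of the 9 genes passed in any of 21 alternative settings (189 values, lowest adjusted p 0.453, 0 at an unadjusted p under 0.05), and 22 values had the opposite sign from the estimate with all arrays. Of these, 12 came from leaving out 1 array and lie within the ranges given for that below. The other 10 were, for Vil1, -0.026 with the GAPDH covariate and -0.063 when scaled to epithelial markers; for Cdh17, 0.012 with median centring; for Cdhr5, -0.055 without control arrays 1 and 2 and -0.002 when scaled to epithelial markers; for Krt8 and Krt19, 0.003 and 0.045 with quantile normalisation; for Krt18, -0.003 without control arrays 1 and 2; and for Krt20, 0.03 with median centring and 0.002 without control arrays 1 and 2. The cause was not tested. Leaving out 1 array at a time gave -0.06 to 0.126 for Vil1, -0.34 to -0.022 for Ezr, -0.142 to 0.074 for Cdh17, 0.115 to 0.307 for Cdhr2, -0.069 to 0.193 for Cdhr5, -0.231 to -0.101 for Krt8, 0.009 to 0.133 for Krt18, -0.186 to -0.127 for Krt19, -0.255 to 0.23 for Krt20 and -0.101 to 0.074 for the median over the genes. The 12 other genes given with a standard error kept their sign and did not pass in 251 values (lowest adjusted p 0.191), but their size moved. Slk went from -0.202 to -0.019 without control array 1, and to -0.392 with its probe sets averaged.

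The count over all probe sets, 2 with all arrays, was 1 with a pseudocount of 1, quantile normalisation, median centring, no filter or no trend, 3 with a pseudocount of 64, 0 with a gene's probe sets averaged or without control arrays 1 and 2 (1590 and 1394 at an unadjusted p under 0.05), and 1 to 2 with 1 array left out. With the replicate number as a block the count was 1, and the block changed no call among the 9 genes. For Rhoa the unadjusted p by limma was 0.0332 with the block (adjusted p = 0.393) and 0.122 without it. Same-numbered samples of the 2 diets had correlated deviations over 0.1 in 2 of 4 pairs (-0.151 to 0.163). Of 4 control arrays, 2 correlated best with their own number. A check on 4 pairs cannot tell whether the numbers pair the samples, and the main fit assumed no pairing. The number of arrays limits these results: the 95% interval of Ezr reaches -0.62.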
